A study of Mus musculus with 1119 samples.

Results

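The 49 genes described here carry a cell through mitosis: they condense and part the chromosomes, build the spindle, time the division and split the cell. They were taken by name from a list, which was drawn up with earlier results of these data known, and each was found on exactly 1 of the 46609 rows of the deposited tables. They were measured in 1119 single cells of mouse back skin by Smart-seq2, a method that reads the whole length of transcripts from 1 cell per well. The cells were sorted by flow cytometry at postnatal ages around the first natural entry of hair follicles into growth.

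Cells from animals aged P21, P23-P24 and P25-P27 carried Lgr5-eGFPiresCreER and R26-tdTomato, 2 alleles that mark cells using the stem cell gene Lgr5 and their progeny, and both sexes were pooled. They were sorted with GFP, tdTomato, integrin α6, integrin b1, CD34 and Pcadherin. The authors' annotation makes 39 of them resting (telogen) bulge cells at P21, 71 resting hair germ cells at P21, 73 hair germ cells at P23-P24, 16 hair germ cells at P25-P27 and the rest matrix cells at P25-P27, on plates of 55, 76 and 68 cells. The P30 hair bulb cells, on plates of 76, 78, 75, 74 and 81 cells and annotated as matrix of full growth, came from Lhx2-GFP (CD1) animals of both sexes. Their sort used Sca-1 and Pcadherin beside GFP, CD34 and the integrins α6 and b1. The P30 dermal papilla cells, on plates of 87, 87, 86 and 77 cells, came from males with K14-H2BGFP and LEF1-RFP, sorted with GFP, RFP, integrinα9 and CD117. GFP or RFP therefore reports a different gene in each of these 3 strains, and strain, sort and deposited table change together between P25-P27 and P30. No label names an animal, so each group of cells stands for 1 sample: no test was made between groups, no p-value is given, and intervals on shares of cells (exact Clopper-Pearson, 95%) cover the counting of cells only.

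Mitosis is driven by the kinase CDK1 bound to cyclins A and B. It ends when a ubiquitin ligase, the anaphase-promoting complex, marks cyclin B for destruction and sets off the parting of sister chromatids. Most mitotic genes are silent in resting cells and are transcribed late in the cycle, after the genes of DNA replication. In the hair follicle, the hair germ and bulge rest in telogen, the germ divides first when growth starts, and the matrix of the growing bulb then divides rapidly to feed the hair shaft, while the dermal papilla is a mesenchymal signalling centre that seldom divides.

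A gene counted as seen in a cell at 1 TPM or more. TPM scales each library to the same total after dividing by transcript length, so it can be set side by side between genes, but it holds no read depth, and depth per cell is unknown. Median numbers of genes seen per cell ran from 5328.5 to 7361.5 between groups. Fewer than 2000 genes were seen in 33 dermal papilla cells and in 16 cells of all other groups together, of which 5 were P23-P24 hair germ and 5 P30 hair bulb cells. The labelled types were checked against marker lists. At least 3 of 9 bulge markers were seen in all 39 bulge cells, and at least 3 of 5 hair germ markers in 60 of 71 P21 and 64 of 73 P23-P24 hair germ cells. At least 3 of 9 matrix markers were seen in 87.5% of P30 hair bulb cells but in only 51 P25-P27 matrix cells (25.6%), so the early matrix label was weakly borne out by those markers. Melanocyte transcripts reached the P30 hair bulb library: 41.4% of its cells held at least 4 of 7 melanocyte markers.

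RefSeq promoter windows (GRCm38.p6, 250 bases before to 50 after the start site) were at hand for 40 of the 49 members. They were searched on both strands for CCAAT, the box bound by the factor NF-Y, and for TTTGAA or TTCGAA, the cell cycle homology region through which the DREAM and MuvB complexes act on late cell cycle genes. CCAAT was found for 31 of the 40 members (77.5%) and for 41.1% of all 27025 symbols in the table. TTTGAA or TTCGAA was found for 32 of the 40 (80%) against 21.7% of all symbols, and both kinds together for 27 (67.5%) against 8.61%. Position set the members further apart. A TTTGAA or TTCGAA began within 30 bases either side of the start site for 26 of 40 members (65%) and for 3.42% of all symbols, a window chosen after the matches were seen. Of the 18 genes of DNA replication used below as S phase genes, 16 had a window, of which 3 held TTTGAA or TTCGAA (18.75%) and 12 held CCAAT (75%). Of 64 further mitosis genes 51 had a window, of which 32 held TTTGAA or TTCGAA (62.7%), 35 held CCAAT (68.6%) and 25 held both kinds (49.02%). A match is a run of letters and not a proven site.

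Below are the stretches around the matches for the 6 members that were seen in most P30 hair bulb cells among those with both kinds of motif on a chromosome that may be shown. They are printed so that the arrangement of the letters can be seen, and co-expression was not compared between members with and without them. Capitals mark the matches, in whichever strand they were found. Each reads 5′ to 3′ in the gene's direction, and none goes beyond 30 bases past the RefSeq start site used. In the GENCODE annotation Ncapd2 starts farther upstream, inside its stretch, so part of that stretch lies within the gene there. They lie at chr15:99651641-99651673 on the minus strand for Racgap1, chr11:99024202-99024421 on the minus strand for Top2a, chr6:125191625-125191768 on the minus strand for Ncapd2, chr4:52439071-52439111 on the plus strand for Smc2, chr7:135716467-135716572 on the minus strand for Mki67 and chr7:80294409-80294456 on the plus strand for Prc1.

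Racgap1: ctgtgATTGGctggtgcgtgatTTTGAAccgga

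Top2a: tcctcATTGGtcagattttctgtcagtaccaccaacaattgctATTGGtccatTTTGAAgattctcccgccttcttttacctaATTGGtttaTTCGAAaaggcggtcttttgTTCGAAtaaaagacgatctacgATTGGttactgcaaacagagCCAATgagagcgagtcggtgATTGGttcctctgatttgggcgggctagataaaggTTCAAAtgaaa

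Ncapd2: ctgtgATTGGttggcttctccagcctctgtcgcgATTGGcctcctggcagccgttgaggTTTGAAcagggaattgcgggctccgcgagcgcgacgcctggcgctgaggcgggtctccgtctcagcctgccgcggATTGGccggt

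Smc2: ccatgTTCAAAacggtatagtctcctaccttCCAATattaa

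Mki67: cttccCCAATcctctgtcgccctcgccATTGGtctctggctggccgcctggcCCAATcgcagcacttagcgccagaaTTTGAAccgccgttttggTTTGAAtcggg

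Prc1: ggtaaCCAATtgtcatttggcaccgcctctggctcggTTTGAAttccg

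In Racgap1 a TTTGAA began 5 bases after the start site and a reversed CCAAT 12 bases before it, and in Prc1 a TTTGAA began 5 bases before the start. Top2a held 6 CCAAT and 4 TTTGAA or TTCGAA matches in the stretch shown. Smc2 held a further match 26 bases after its start, which lies outside the stretch shown.

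Cells with 10 or more of the 49 members were common in 2 groups and rare in the others. They made up 39 of 73 P23-P24 hair germ cells (53.4%, interval 41.4 to 65.2%) and 48.96% of P30 hair bulb cells (43.9 to 54.1%). In the P25-P27 matrix they were 16 cells (8.04%, 4.67 to 12.7%). None was found among 39 bulge cells, 71 P21 hair germ cells or 16 P25-P27 hair germ cells. Their intervals reach up to 9.03%, 5.06% and 20.6%, while 3 cells would be 7.69%, 4.23% and 18.75% of those totals. In the dermal papilla it was 1 cell (0.297%).

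**Figure D1:**
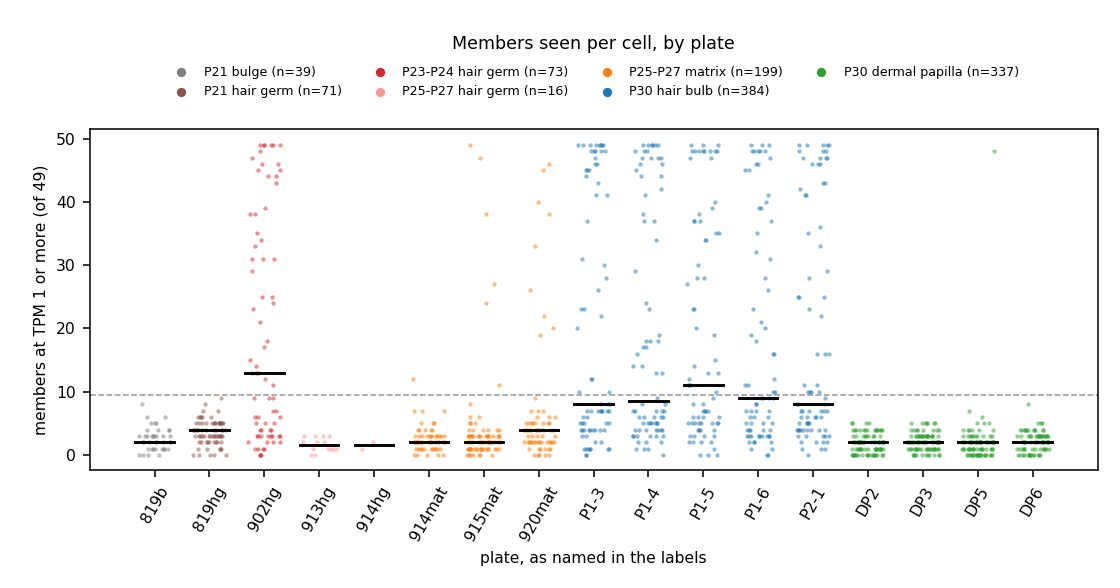
Number of the 49 members seen (TPM 1 or more) in each cell, by plate. Each point is 1 cell, black bars are plate medians, colours are groups and the dashed line parts cells with fewer than 10 members from those with 10 or more. Cells above the line fill 1 plate of P23-P24 hair germ and all 5 plates of P30 hair bulb, while the P25-P27 matrix has 16 such cells and the dermal papilla 1.

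The plot of members per cell shows cells gathered at both ends of the range. At P30, 73.4% of cells showed 5 or more members and the rest 0 to 4. Of those with 5 or more, 94 cells showed 5 to 9, 43 showed 10 to 19, 53 showed 20 to 39 and 92 showed 40 to 49. These ranges differ in width. In the P23-P24 hair germ 23 cells showed 0 to 4 members and 15 showed 40 to 49. The count of members is a range and not a cell type, and 39 P30 cells lay within 8 to 12 members, near the line. Of the P30 hair bulb plates 4 lay between 47.3% and 48.7%, and plate P1-5 was at 53.3%. The P25-P27 matrix plates stood farther apart: 1 of 55 cells on plate 914mat (1.82%), 6 of 76 on 915mat (7.89%) and 9 of 68 on 920mat (13.2%), with counting intervals that overlapped. All P23-P24 hair germ cells came from 1 plate, so plate and age cannot be told apart for them.

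Cells with more members also showed more genes in total and less spike-in. In the P30 hair bulb the median number of genes seen went from 6411.5 in cells with 0 to 4 members to 8489 in cells with 40 to 49, and the median share of TPM on spike-in rows from 0.964% to 0.465%. In the P23-P24 hair germ the same medians went from 5800 to 8014 genes and from 5.64% to 2.36%. Their part in the number of members seen was not tested. Among cells with 4000 to 9000 genes the share with 10 or more members was 55.9% in the P23-P24 hair germ and 44% in the P30 hair bulb. The medians of genes seen given above all lie inside that wide band, so it does not hold genes seen equal.

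Member counts were also set beside cell type markers. Of the P30 hair bulb cells with at least 3 of 6 keratinocyte markers (89.1% of the group), 52.05% had 10 or more members, against 10 of the 42 other cells (23.8%), and the median cell showed 7508.5 genes in the first set and 5852.5 in the second. Of the cells with 4 or more melanocyte markers 71 had 10 or more members (44.7%), against 52% of the others, with intervals that overlapped (36.8 to 52.7% and 45.3 to 58.7%). In the P25-P27 matrix, 10 or more members were seen in 9 of 51 cells with at least 3 matrix markers (17.6%). Of the cells without 3 matrix markers 7 had that many (4.73%), with intervals that overlapped. None of 27 matrix cells with at least 3 of 6 markers of differentiated interfollicular epidermis had 10 or more members. The interval on that share reaches up to 12.8%, which covers the 9.302% found among matrix cells without those epidermal markers. Median genes seen were 6565 and 5154 in the cells with and without 3 matrix markers.

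**Figure D2:**
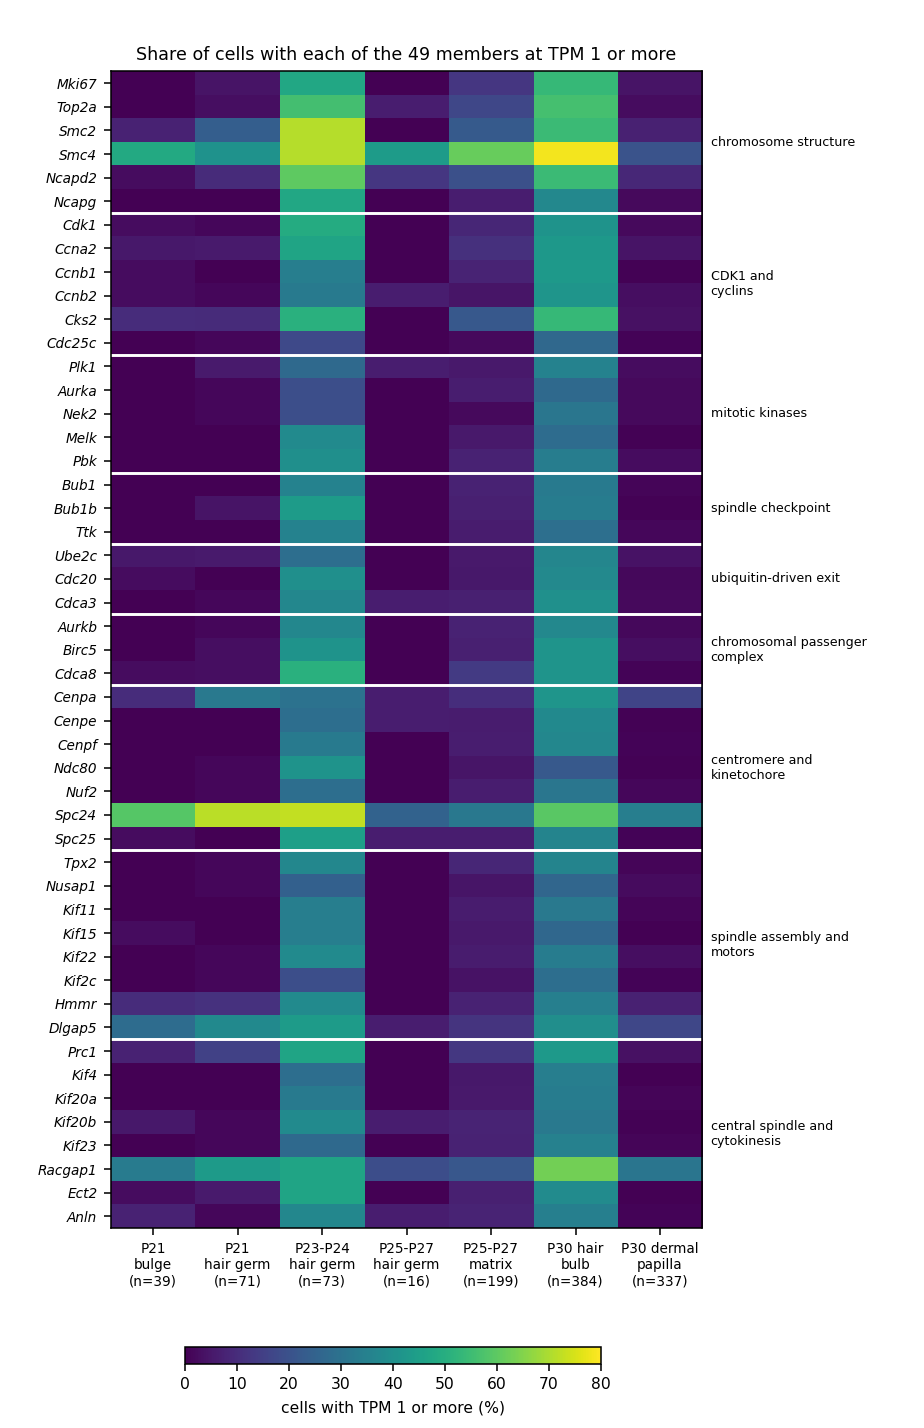
Share of cells in which each of the 49 members was seen (TPM 1 or more, colour, in percent), by member (rows, grouped by role) and group (columns, with the number of cells). The P23-P24 hair germ and P30 hair bulb columns are bright for nearly all rows, and Smc4, Spc24, Racgap1, Dlgap5 and Cenpa stand out in the resting groups.

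Gene by gene, the shares ran along the same line, as the map of shares shows. The median member was seen in 0% of bulge cells, 1.41% of P21 hair germ cells, 38.4% of P23-P24 hair germ cells, 0% of P25-P27 hair germ cells, 7.04% of P25-P27 matrix cells, 36.7% of P30 hair bulb cells and 2.08% of dermal papilla cells. In the bulge 27 of the 49 members were seen in no cell, in the P21 hair germ 14 and in the P25-P27 hair germ 35. Every member was seen in at least 17.8% of P23-P24 hair germ cells (Cdc25c) and in at least 22.4% of P30 hair bulb cells (Ndc80). The lowest TPM of each member was 0 in every group, so at least 1 cell of each group lacked each member.

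Chromosome structure genes were the most widely seen role, with a median share of 58.2% in P23-P24 hair germ and 54.4% in P30 hair bulb cells. Mki67, the Ki-67 protein that coats mitotic chromosomes, had a median of 0.48 TPM and a highest value of 91.01 TPM in the P23-P24 hair germ, and a median of 1.40 and a highest value of 150.88 TPM in the P30 hair bulb. It was seen in 47.9% and 53.6% of those cells, in 12.6% of P25-P27 matrix cells, in 4.23% of P21 hair germ cells and in no bulge cell. Its mean was 16.8 TPM in the P23-P24 hair germ and 16.4 TPM in the P30 hair bulb. Top2a, the topoisomerase that untangles sister DNA, averaged 37.5 TPM in the P23-P24 hair germ, 6.90 TPM in the P25-P27 matrix and 30.04 TPM in the P30 hair bulb, with its highest cells at 315.12 TPM in the first and 325.51 TPM in the last, and 0.43 TPM in the P21 hair germ. Smc4, a core subunit of the condensin complexes, was the member seen in most P30 hair bulb cells (78.6%), and Ncapg, a condensin I subunit, was the chromosome structure gene seen in fewest.

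Among CDK1 and its partners, Cdk1 itself averaged 76.7 TPM in the P23-P24 hair germ, where its highest cell reached 568 TPM. It averaged 29.04 TPM in the P30 hair bulb and 8.69 TPM in the P25-P27 matrix, and at most 1.04 TPM in the other groups. It was seen in 49.3%, 41.1% and 8.54% of the cells of those 3 groups. Ccna2, cyclin A2, was seen in 46.6%, 42.7% and 11.1% of the cells of those 3 groups, with means of 37.1, 18.2 and 4.51 TPM. Ccnb1, cyclin B1, went another way: it was seen in 34.2% of P23-P24 hair germ cells and 43.2% of P30 hair bulb cells, in 16 P25-P27 matrix cells and in no P21 hair germ cell. Cks2, a small CDK-binding protein, was the most widely seen gene of this role at P30 (53.6%) and Cdc25c, the phosphatase that switches CDK1 on, the least (27.1%).

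The kinases were seen in fewer cells. Plk1, polo-like kinase 1, which acts at spindle poles and kinetochores, was seen in 27.4% of P23-P24 hair germ cells and 35.4% of P30 hair bulb cells, at means of 10.1 and 10.3 TPM. In both groups its median over cells was 0. Aurka, the spindle pole kinase aurora A, was the least widely seen kinase at P30, and averaged 2.35 TPM in the P23-P24 hair germ and 4.54 TPM in the P30 hair bulb. The checkpoint kinases Bub1 and Ttk, which hold anaphase back until chromosomes are attached, were seen in none of the bulge and P21 hair germ cells and in 35.6% of P23-P24 hair germ cells each.

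Of the genes of mitotic exit, Cdc20, an activator of the anaphase-promoting complex, was seen in 39.7% of P23-P24 hair germ, 5.03% of P25-P27 matrix and 37.5% of P30 hair bulb cells. Ube2c, the ubiquitin-conjugating enzyme of that complex, was seen in 28.8%, 5.53% and 36.7% of them. Its means were 20.9, 3.55 and 33.3 TPM, with the highest cells at 334.35, 417 and 459 TPM. In the chromosomal passenger complex, which corrects chromosome attachment, the kinase Aurkb was seen in 36.99%, 7.54% and 37.2% of cells and its partner Birc5, survivin, in 41.1%, 7.04% and 41.4%. Aurkb was thus seen in like shares of P23-P24 and P30 cells, while its mean was 19.9 TPM in the first and 10.8 TPM in the second.

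Kinetochore genes ranged at P30 from Ndc80 (22.4%), which grips the microtubule, to its complex partner Spc24 (59.6%). Among spindle genes Dlgap5, a microtubule-binding protein, was seen in most P30 cells (39.6%) and Nusap1, which bundles microtubules, in fewest (26.3%). Among genes of the central spindle and cytokinesis, Racgap1, a subunit of the centralspindlin complex that marks the cleavage plane, was seen in 63.02% of P30 cells, and the kinesin Kif20b in 32.3%.

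Some members were seen widely in resting cells, most of them at low levels. Spc24 was seen in 23 of 39 bulge cells (58.97%) and 51 of 71 P21 hair germ cells (71.8%), close to the 72.6% of P23-P24 hair germ cells. Its median level where seen was 3.85 TPM in the bulge and 3.90 TPM in the P21 hair germ, against 28.2 TPM in the P23-P24 hair germ, where its highest cell reached 1028 TPM. At 10 TPM or more it was in 0% of bulge, 9.86% of P21 hair germ and 52.1% of P23-P24 hair germ cells. Racgap1 behaved alike, in 43.7% of P21 hair germ cells at a median of 2.30 TPM where seen, against 46.6% of P23-P24 hair germ cells at 48.6 TPM. At 10 TPM or more Racgap1 was in 0% and 38.4% of those cells. Dlgap5 was seen in 38.03% of P21 hair germ cells at a median of 4.86 TPM where seen, and Cenpa, the centromeric histone, in 32.4% at 5.33 TPM, while the 4 bulge cells with Cenpa had a median of 58.7 TPM. Smc4 was seen in 48.7% of bulge and 40.8% of P21 hair germ cells, at medians where seen of 18.7 and 16.4 TPM, not far from the 24.5 TPM of the P23-P24 hair germ.

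Between rest and the first growth of the hair germ, the whole module was higher. From P21 to P23-P24, all 49 members had a higher mean log2(TPM + 1), the median member by 1.47, and 37 were higher by 1 or more. The background was 6.4% of 12981 genes (those seen in 10% or more of either group's cells), whose median difference was -0.07. The difference was largest for Cdk1 (3.21, from a mean of 0.83 to 76.7 TPM), Ncapd2, a condensin I subunit (3.13), and Top2a (2.76), and smallest for Cenpa (0.30). By role, all 6 chromosome structure genes, 5 of 6 genes of CDK1 and cyclins, 3 of 5 mitotic kinases, all 3 checkpoint genes, all 3 exit genes and all 3 passenger genes were past that size, as were 5 of 7 centromere genes, 4 of 8 spindle genes and 5 of 8 genes of cytokinesis. All 49 members passed the filter on low values here, through the P23-P24 cells. P23-P24 cells showed a median of 6861 genes and 4.24% spike-in, P21 hair germ cells 6215 genes and 10.7%, and 3 of 5 hair germ markers were lower by 1 or more at P23-P24. Their part in the members' differences was not tested.

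Among other lists of the cycle, S phase genes were higher throughout and the rest in part. Of 59 further mitosis genes 29 were higher by 1 or more and none lower, led by Mad2l1, a checkpoint protein (2.205), and Ncapg2, a condensin II subunit (2.12). All 18 S phase genes were higher by 1 or more, with a median of 2.60, led by the replicative helicase subunits Mcm5 (4.17) and Mcm3 (3.78). Of 20 regulators of late cycle transcription 7 were higher by 1 or more, among them E2f1 (1.95) and Foxm1 (1.92), and of 12 G1 cyclins and CDK inhibitors 2 were, Ccne2 and Ccnd2. The inhibitor Cdkn1b, p27, had a lower mean log2(TPM + 1) at P23-P24, by -1.05.

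The early matrix stood below the P23-P24 hair germ throughout. In P25-P27 matrix cells all 49 members had a lower mean log2(TPM + 1) than in the P23-P24 hair germ, the median member by -1.31, and 30 were lower by 1 or more, against 8.48% of 12546 background genes and a background median of -0.20. In the matrix 36 members were seen in under 10% of cells and so passed the filter through the hair germ, where they were high. The largest differences were those of Cdk1 (-2.75), Smc2, a condensin core subunit (-2.56), Ncapd2 (-2.54) and Spc24 (-2.44), and the smallest that of Aurka (-0.44). With 1 plate set against the hair germ at a time, 40 members were past that size for 914mat, 31 for 915mat and 28 for 920mat. With a pseudocount of 0.1 the count was 48, and by the log2 ratio of mean TPM 47. All 18 S phase genes were lower by 1 or more as well (median -2.28), as were 21 of 59 further mitosis genes and none was higher. The G1 inhibitor Cdkn1a, p21, was the gene of its list with the largest difference, and was higher in the early matrix (1.38, from 12.5 to 59.4 TPM). Markers of differentiated interfollicular epidermis were higher by 1 or more in the early matrix for 2 of 6, and its median cell showed 5475 genes, against 6861 in the P23-P24 hair germ. Their part was not tested.

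Against the 16 hair germ cells of the same age, P25-P27 matrix cells differed little. Only Smc4 was higher by 1 or more (1.14), against 3.89% of 12298 background genes. Of the 22701 genes seen in at least 1 cell, a filter that all 49 members pass, 2.11% were. The count of members was thus near the share over all genes. Means were above those of the hair germ for 48 of 49 members, the median member by 0.24, with Kif20b the exception (-0.02). The filter on low values was passed by 13 members, all of them through the matrix cells. The hair germ cells held at most 3 members each and 35 members were in none of them. Plate by plate, 30 members were above 0 for 914mat and 49 each for 915mat and 920mat. Plate 914mat shares its number with 914hg, which holds 2 of the 16 hair germ cells. Without plate 914mat 3 members were higher by 1 or more, and by the log2 ratio of mean TPM 30 were. Among S phase genes 6 of 18 were higher by 1 or more, among them Mcm6 (1.34), and among bulge markers 6 of 9 were lower by 1 or more.

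P30 hair bulb cells stood above the early matrix for all 49 members. The median member was higher by 1.12 and 28 were higher by 1 or more, against 8.29% of 13334 background genes and a background median of 0.24. As 36 members were seen in under 10% of early matrix cells, those passed the filter through the P30 cells, where they were high. Racgap1 (1.95), Top2a (1.89), Ccnb1 (1.75) and Mki67 (1.73) differed most and Ndc80 (0.55) least. Once ribosomal, mitochondrial and spike-in rows were left out and TPM rescaled, the background median itself was 0.60. Relative to the background median, 19 members were higher by 1 or more on the deposited scale and 31 on the rescaled one, and all 49 were above it on both. P30 cells showed a median of 7361.5 genes and 0.709% spike-in, early matrix cells 5475 genes and 6.46%, and the part of these in the difference was not tested. The P30 plates gave 24 to 36 members past that size and the early matrix plates 23 to 39. With a pseudocount of 0.1 the count was 49, and by the log2 ratio of mean TPM 44. Among S phase genes the median difference was 0.68 and 3 of 18 were higher by 1 or more, with Uhrf1 (1.41) and Rrm2 (1.39) in front, as were 9 of 59 further mitosis genes, led by Tacc3, a spindle protein (1.44). Of the keratinocyte markers 5 of 6 were lower by 1 or more at P30, while 8 of 9 matrix markers and 5 of 7 melanocyte markers were higher by 1 or more. Their part in the members' differences was not tested, and strain, sort, table and age cannot be told apart.

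The 2 groups rich in members had like module levels. Between P30 hair bulb and P23-P24 hair germ, a comparison added after the values were seen, the median member differed by -0.08 on deposited TPM and by 0.07 on rescaled TPM. No member was higher by 1 or more at P30 (background 5.53%), and 3 were lower by that much (background 7.66% of 13507 genes), namely Spc24 (-1.37), Smc2 (-1.30) and Cdk1 (-1.07). Cenpa had the largest difference upward (0.56). Single P30 plates gave 2 to 6 members lower by 1 or more, and the log2 ratio of mean TPM gave 6. In the same comparison 15 of 18 S phase genes were lower by 1 or more at P30, with a median of -1.67, led by Mcm6 (-2.67) and Mcm5 (-2.43). All 6 keratinocyte markers were lower and 5 of 7 melanocyte and 8 of 9 matrix markers higher by 1 or more at P30, and their part was not tested. This comparison uses the same P30 and P23-P24 cells as those above.

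**Figure D3:**
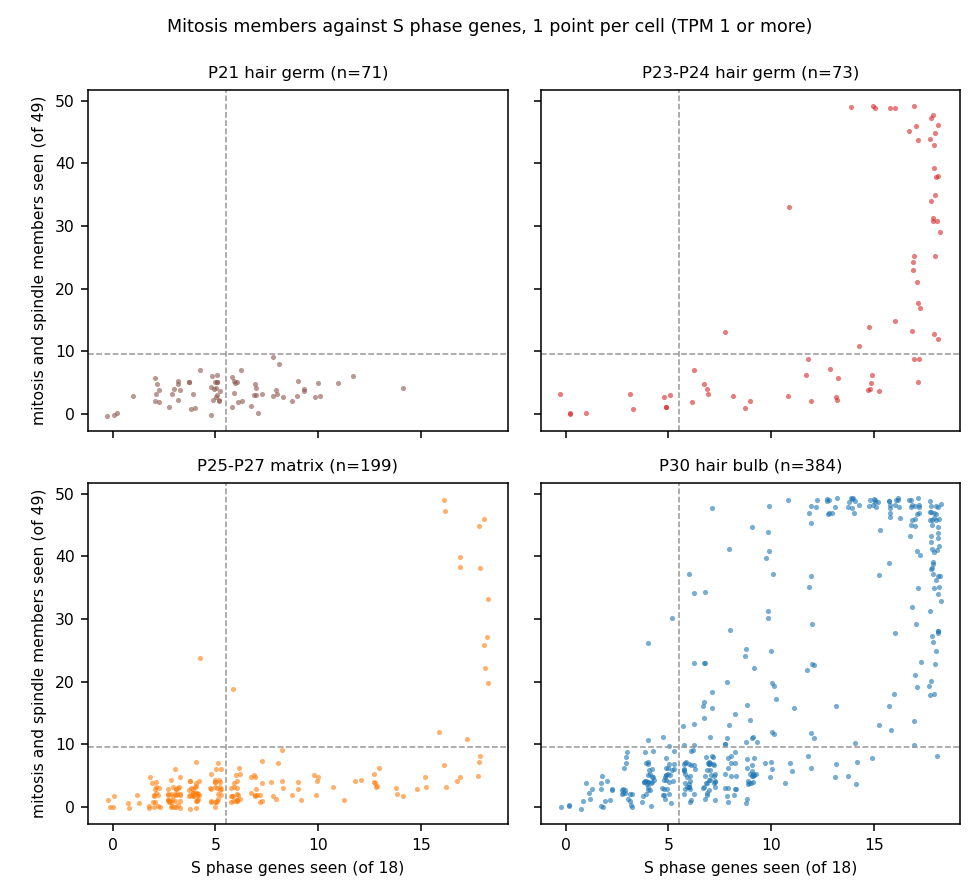
Number of the 49 members (vertical) against the number of the 18 S phase genes (horizontal) seen in each cell at TPM 1 or more, for P21 hair germ, P23-P24 hair germ, P25-P27 matrix and P30 hair bulb. Points are cells, moved slightly so that they do not hide each other, and dashed lines mark 10 members and 6 S phase genes. The upper left corner is nearly empty: 0 cells in the P23-P24 hair germ, 1 in the P25-P27 matrix and 5 in the P30 hair bulb.

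Set against S phase genes within each cell, most cells with many members also showed replication genes, though the share depends on how many are asked for. In the plot of both counts, all 39 P23-P24 hair germ cells with 10 or more members also had 6 or more of the 18 S phase genes (100%, interval 90.97 to 100%), as had 15 of 16 such P25-P27 matrix cells (93.75%) and 97.3% of such P30 hair bulb cells (93.9 to 99.1%, all but 5). The reverse did not hold. Cells with 6 or more S phase genes and fewer than 10 members were 24 of 73 in the P23-P24 hair germ (32.9%), 71 in the P25-P27 matrix (35.7%) and 28.1% of cells in the P30 hair bulb. They were also 33 of 71 in the resting P21 hair germ (46.5%) and 14 of 39 in the bulge, so 6 S phase genes alone do not mark a cycling cell in these data. Bulge and P21 hair germ cells with 0 to 4 members had a median of 5 S phase genes, just under that line, so the near-full shares above say little. At the stricter count of 12 S phase genes, 94.9% of P23-P24 hair germ cells with 10 or more members and 70.7% of such P30 cells passed. The number of members and the number of S phase genes seen had a Spearman correlation of 0.76 over the 73 P23-P24 cells, 0.77 over the P30 hair bulb cells and 0.20 over the 71 P21 cells, and both counts come from the same libraries.

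**Figure D4:**
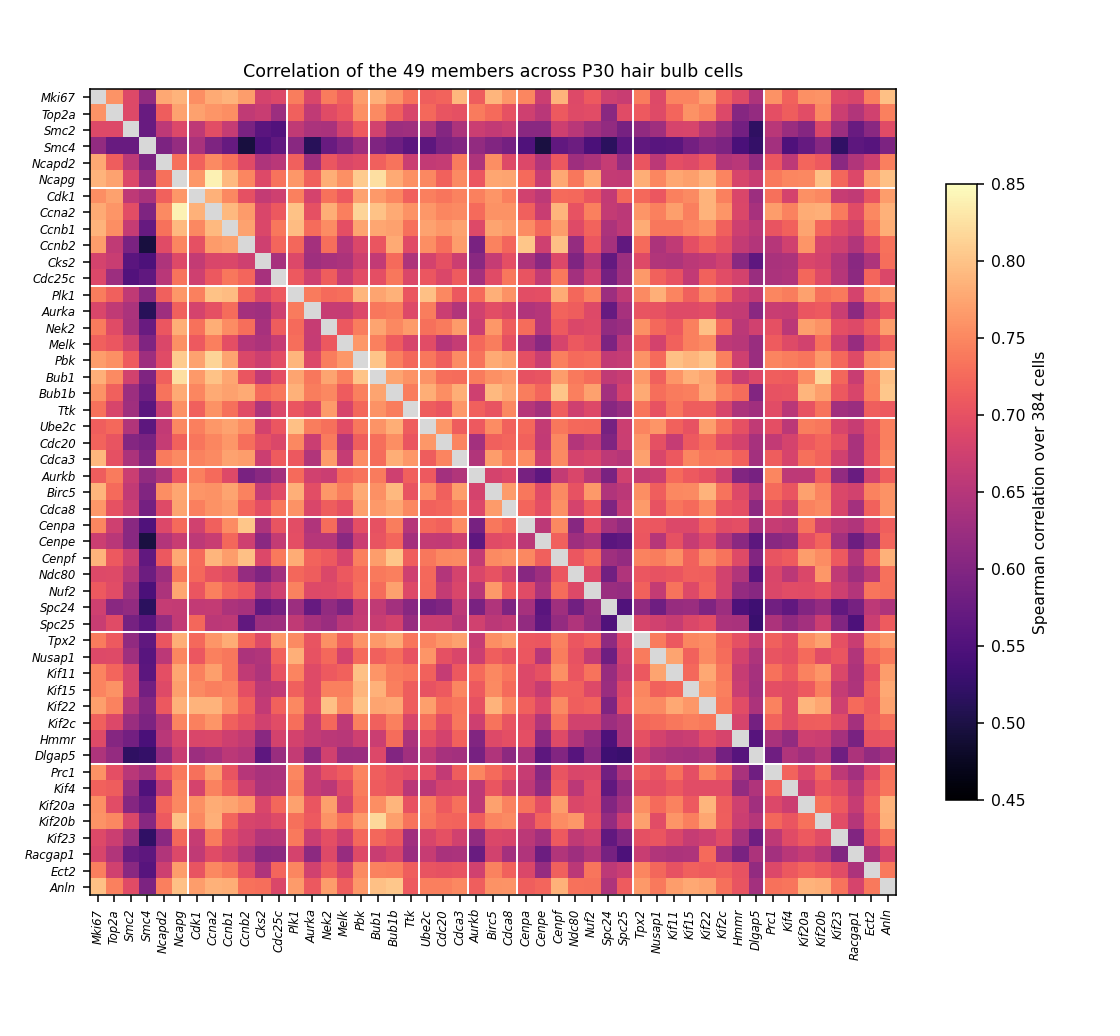
Spearman correlation of log2(TPM + 1) for each pair of the 49 members over all P30 hair bulb cells, with members in the order of their roles and white lines between roles. The colour scale starts at 0.45. The map is even across roles, and the dark lines are Smc4, Spc24 and Dlgap5.

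Across cells the members moved as 1 block. Over the P30 hair bulb cells the 1176 member pairs had a median Spearman correlation of 0.70 and ran from 0.50 (Ccnb2 with Smc4) to 0.84 (Ccna2 with Ncapg). The median between members and S phase genes was 0.48, and that between members and 12729 background genes 0.11. As the map of correlations shows, role made no visible difference, with medians of 0.70 both within and between roles. The member nearest to the others was Ccna2 (median 0.76), followed by Ncapg and Birc5. Those farthest were Smc4 (0.57), Spc24 (0.61) and Dlgap5 (0.63), all of them also widely seen in resting cells. In the 73 P23-P24 hair germ cells the median pair was at 0.67, with Mki67 and Prc1, a cross-linker of the central spindle, closest (0.91). In the P25-P27 matrix it was 0.43. In the dermal papilla it was 0.12, and -0.012 without the 1 cell with 48 members. These values are descriptions over cells that share a library type and a range of genes seen, and cells with no member enter each of them.

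Among the P30 cells with 20 or more members (37.8% of the group) the median pair was lower, at 0.49, and pairs sorted further. The closest were Plk1 with Nusap1 (0.81), Mki67 with Anln, the ring protein anillin (0.78), Plk1 with Cenpf (0.78) and Ccnb1 with Ube2c (0.76). The farthest apart were Ccnb2 with Smc2 (0.10), Ccnb2 with Smc4 (0.13) and Smc2 with Dlgap5 (0.13). The median between members and S phase genes in these cells was -0.05. Picking cells by the members cuts the range of the members' levels, so these values describe the picked cells only.

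Outside the 49, the 10 genes whose level followed the mean of the members most closely over P30 hair bulb cells were H2afz, a histone variant (0.81), Stmn1, a microtubule destabiliser (0.80), Ckap2l (0.79), Foxm1, a transcription factor of late cycle genes (0.78), Hmgb2, a chromatin protein (0.78), Casc5, a kinetochore scaffold (0.78), 2810417H13Rik (0.78), Hist1h2ap, a core histone gene (0.78), Aspm, a spindle pole protein (0.77), and Tacc3 (0.77). Of them 5 were on the lists of cycle genes used above. In the P23-P24 hair germ 6 of these 10 were again among the 10 closest, with Stmn1 first (0.90). At the other end, named after their values were seen, stood Hspb1, a small heat shock protein (-0.50), and Mxd4, an antagonist of MYC (-0.48), at P30, and Aqp3, a water channel (-0.62), and Krt15, a bulge keratin (-0.55), in the P23-P24 hair germ.

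Among cells with a middling count the members differed widely. In the 43 P30 cells with 10 to 19 members, Smc4 was seen in 79.1%, Ncapd2 in 76.7%, Spc24 in 72.1%, Mki67 in 65.1% and Top2a in 62.8%. At the other end were Nusap1 (2.33%), Ndc80, Kif11, the motor that pushes spindle poles apart, and Hmmr, a spindle protein (each 4.65%). In the 92 cells with 40 to 49 members all but Ndc80 (76.1%) were seen in at least 83.7% of cells. These cells were picked by the members themselves, so the shares only describe them, and Ndc80 was also among the members with a low mean TPM (2.10 TPM over all P30 hair bulb cells).

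**Figure D5:**
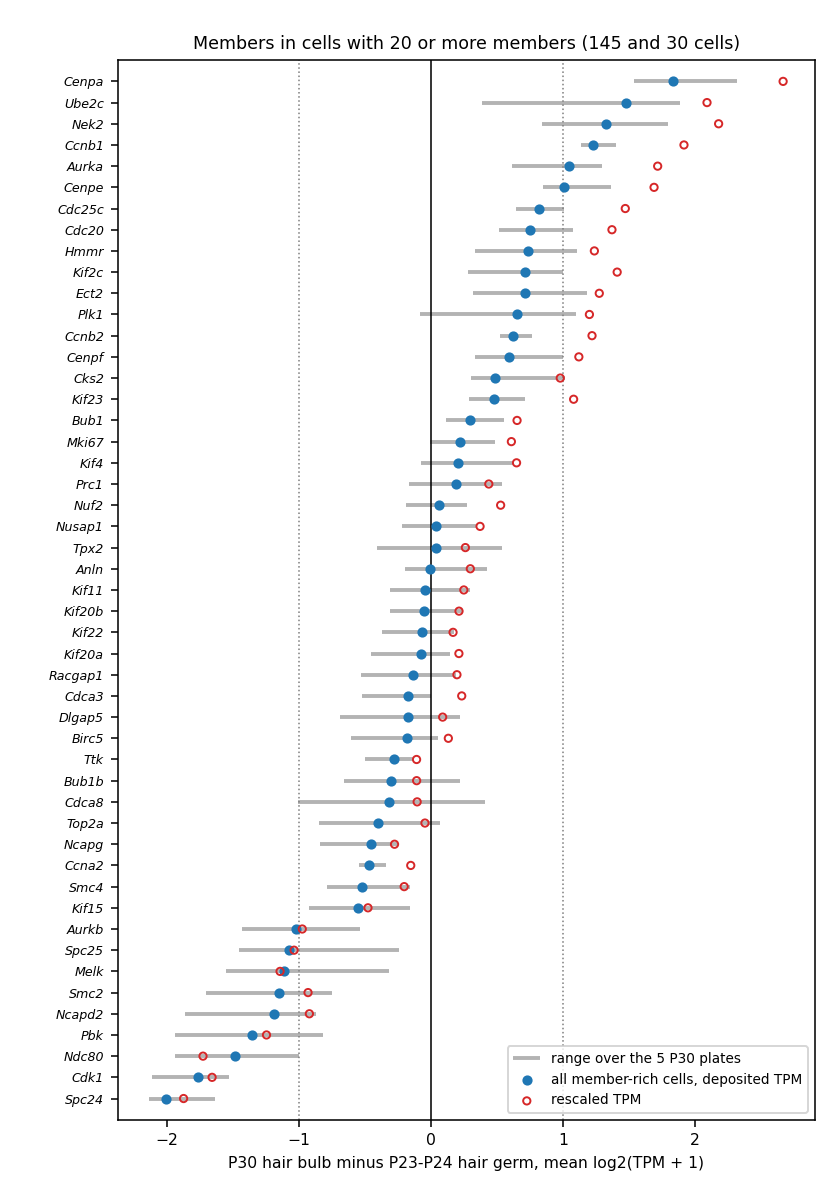
Difference in mean log2(TPM + 1) of each member between P30 hair bulb cells (26 to 32 on each plate) and 30 P23-P24 hair germ cells, all with 20 or more members, P30 minus hair germ (horizontal). Filled points are deposited TPM, open points TPM rescaled without ribosomal, mitochondrial and spike-in rows, grey bars the range when each of the 5 P30 plates is taken alone, and dotted lines differences of -1 and 1. Spc24 and Cdk1 are at the low end and Cenpa, Ube2c and Nek2 at the high end.

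When only cells with 20 or more members were compared, an analysis added after the values were seen, members lay on both sides. Relative to the 30 hair germ cells, 9 members were lower by 1 or more in the P30 cells, of which each plate gave 26 to 32, and 6 were higher, around a median of -0.04, which was 0.25 on rescaled TPM. The background was 9.33% lower and 5.2% higher of 14279 genes, with a median of -0.04. Members were used to pick the cells, so the counts describe those cells.

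The members lower at P30 were 3 kinetochore genes, Spc24 (-2.01), Ndc80 (-1.49) and Spc25 (-1.08), the kinases Cdk1 (-1.77), Pbk (-1.36), Melk (-1.12) and Aurkb (-1.03), and the condensin genes Ncapd2 (-1.19) and Smc2 (-1.15). Spc24 averaged 62.6 TPM in the hair germ cells and 16.5 TPM in the P30 cells, and was seen in 100% and 91.03% of them. Cdk1 averaged 161.3 and 73.5 TPM and was seen in 100% and 89.7%. The 13 P25-P27 matrix cells with 20 or more members lay closer to the hair germ for Spc24 (58.4 TPM) and between the groups for Cdk1 (111.99 TPM).

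The members higher at P30 were Cenpa (1.84), Ube2c (1.48), the centrosome kinase Nek2 (1.33), Ccnb1 (1.23), Aurka (1.05) and Cenpe, a kinetochore motor (1.01). Cenpa was seen in 88.3% of P30 and 50% of hair germ cells and averaged 46.2 and 29.7 TPM. Nek2 was seen in 77.9% and 43.3%, and Ube2c in 82.8% and 63.3%, with means of 85.7 and 49.04 TPM. The matrix cells of P25-P27 with 20 or more members showed Nek2 in 23.1% and Ube2c in 46.2%.

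The direction was the same for 33 of the members over 7 ways of taking the values (a pseudocount of 0.1, the ratio of mean TPM, rescaled TPM with and without the background median taken off, cells with 30 or more members and cells picked by 20 or more of the 59 further mitosis genes instead, beside the main one): 16 were below 0 in all and 17 above 0 in all, with every member named in the previous 2 paragraphs among them. The remaining 16, among them Birc5, Racgap1 and Kif11, changed sign. The named members were picked by the size of their main difference. The 7 ways also share most of their cells and the same hair germ plate. The shared sign is therefore no separate support for these differences. Size was less firm. With a pseudocount of 0.1, and also on rescaled TPM, 15 members were higher by 1 or more. No member was higher by 1 or more by the ratio of mean TPM, where Cenpa was at 0.62, and 5 were lower by 1 or more. In the plot of member-rich cells all 5 P30 plates alone gave 4 to 9 members higher and 4 to 9 lower by 1 or more. All 18 S phase genes were lower by 1 or more in these P30 cells (median -1.70, from Pcna at -2.16 upward), with all 18 below 0 on each P30 plate and on the rescaled scale (median -1.66). Of 7 melanocyte markers 5 were higher by 1 or more in the P30 cells and of 6 keratinocyte markers 5 were lower. Their part was not tested.

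The dermal papilla held 1 cell, on plate DP5, with 48 of the 49 members, and the next cell had 8. It showed 10166 genes, the most of any dermal papilla cell, whose median was 5759. It held all 6 keratinocyte markers, among them Perp at 254.15 TPM, Krt17 at 145.45 TPM and Krt5 at 79.6 TPM, and 8 of 9 matrix markers, beside 10 of 12 dermal papilla markers such as Corin at 175.02 TPM and Pdgfra at 23.5 TPM. Corin and Pdgfra averaged 572.5 and 90.2 TPM over the group. Of the dermal papilla markers only Lef1, Prdm1 and Bmp6 were above their group means in this cell. Lef1 is on both the matrix and the dermal papilla list. The median dermal papilla cell held no keratinocyte marker, 2 matrix markers and 9 dermal papilla markers. The cell with 48 members also held 3 of 9 immune markers. Without that cell no dermal papilla cell reached 10 members, while Spc24 was seen in 34.1% of the group at a median of 3.18 TPM where seen and Racgap1 in 31.2% at 1.85 TPM.

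Exons of 15 members overlap those of another gene in GENCODE M21, 13 of them on the opposite strand, among them Ccna2 with Exosc9, Cdc20 with Elovl1, Ube2c with Tnnc2, Nusap1 with Oip5 and Prc1 with Rccd1. Smart-seq2 does not mark strand, so reads from overlapping exons cannot be told apart. Near-identical copies named Ccnb2-ps, Kif4-ps and Kif22-ps have rows of their own and could share reads with their parents.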

How the data were processed

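Smart-seq2 libraries of 1119 single cells, 1 per well of a plate, were read paired-end on an Illumina NextSeq, per the labels' protocols. The authors deposited 3 tables of TPM (a level per transcript length, scaled to the same total in every cell), which hold 46609 rows each. The deposited cell type of each cell came as a text label. RSEM 1.2.30, Bowtie2 2.2.9 and build mm10 are named in the submitters' processing notes. The dermal papilla table separates its fields by a literal mark, and its deposited values were read as TPM once split. Columns summed to 999999 to 1000000, all columns were matched to samples (0 unused), and none were identical. TPM keeps no depth, so the precision from reads is unknown.

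A gene was seen at TPM 1 or more. The size of a difference is that of mean log2(TPM + 1), and 1 or more counts as past the fold. The background is every gene seen in 10% or more of the cells of 1 group, without 488 spike-in (92), ribosomal and mitochondrial rows. Since no label names an animal, each group counts as 1 sample and no test was run. Exact Clopper-Pearson intervals (95%) and the floor of 3 cells cover the counting of cells only. The statistics were tested on simulated data. Doublets were not called, and no cell was filtered out.

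The members and all lists were chosen with earlier results of these data known. Named genes are members by role (those seen in most and fewest P30 cells, and 10 in full), up to 4 genes of each other list with the largest difference, and the 10 genes most like the members' mean. Alternatives were another pseudocount, the log2 ratio of mean TPM, other TPM and member minimums, TPM rescaled to 1000000 without technical rows, cells of 4000 to 9000 genes and each plate left out. Python 3.11.15, numpy 2.4.6, scipy 1.17.1, pandas 2.3.3 and matplotlib 3.10.9 were used.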

Additional observations from a re-analysis of the deposited data

Results flagged for a closer look

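Among the 5 P30 hair bulb plates, the share of cells with 10 or more members was 53.3% on plate P1-5, which lay far from the other 4 plates (47.3% to 48.7%) for their range. Among the 4 dermal papilla plates the share was 1.16% on plate DP5, through its 1 cell with 48 members, and 0% on the others. By chance about 1 in 20 groups of plates with normally distributed values would be set apart this way. That rate does not describe the dermal papilla plates, where the others are at 0 and a single cell sets 1 plate apart.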

How the results depend on the processing

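No paired analysis was possible because the labels do not say that same-numbered plates (819b and 819hg, 914hg and 914mat) share an animal or day, 914hg holds 2 cells, and no test was run. Of the values of the main comparisons and shares under an alternative, 120 moved little and 35 moved. The median member difference between P30 and P23-P24 turned from -0.08 to 0.07 on rescaled TPM and was 0.03 for plate P1-3 alone, and in cells with 20 or more members it turned from -0.04 to 0.02 with a pseudocount of 0.1 and to 0.25 on rescaled TPM. Of the shares of single members 82 moved. The cause was not tested.

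With a pseudocount of 0.1, 48 members were lower in the P25-P27 matrix than in the P23-P24 hair germ, 5 higher than in the P25-P27 hair germ, 49 higher at P30 than in the early matrix, and 5 lower at P30 than in the P23-P24 hair germ. By the log2 ratio of mean TPM these counts were 47, 30, 44 and 6. On rescaled TPM 3 were higher in the matrix than in the P25-P27 hair germ and 48 at P30 than in the early matrix. Among cells of 4000 to 9000 genes, 5 were lower at P30 than in the P23-P24 hair germ. Leaving out 1 plate gave 28 to 37, 1 to 3, 27 to 35 and 3 to 3.

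In cells with 20 or more members, the count higher at P30 was 15 with a pseudocount of 0.1, 0 by the ratio of means, 15 on rescaled TPM, 2 with 10 or more members and 4 to 6 without 1 plate. The count lower was 5 by the ratio of means and 7 to 9 without 1 plate.

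With 5 or more members in place of 10, shares of cells were 15.4% (bulge), 33.8% (P21 hair germ), 68.5% (P23-P24 hair germ), 21.6% (P25-P27 matrix), 73.4% (P30 hair bulb) and 6.23% (dermal papilla). With 20 or more they were 41.1% (P23-P24 hair germ) and 37.8% (P30 hair bulb). The P30 share was 57.8% at TPM above 0, 41.1% at TPM 5 and 55.7% on rescaled TPM. Without 1 plate it was 47.9% to 49.4%, the matrix share 5.34% to 10.4% and the dermal papilla share 0% to 0.4%, which was 0% among cells of 4000 to 9000 genes. The share of P30 member cells with S phase genes was 89.9% at TPM 5 and 70.7% with 12 or more of them. Pearson medians of member pairs were 0.54 in the matrix and 0.34 in the dermal papilla. Leaving out the dermal papilla cell with 48 members gave the -0.012 named with the correlations above.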
